A study of Rattus norvegicus with 24 samples.

Results

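Late risers are defined here as genes that stayed near their vehicle level at 0.3 and 3 µg/kg TCDD and were higher at 10 µg/kg in the rat liver. Of the 26404 gene IDs counted, 89 met the rule. The rule works on CPM, the count of a gene divided by all gene counts of its library, times 1000000. A gene had to average from 1 to below 1000 CPM in vehicle and less than 1.5 times the vehicle mean at both 0.3 and 3 µg/kg. Its mean at 10 µg/kg had to be at least 2.5 times the vehicle mean, with every library at 10 µg/kg above every library of vehicle and of 3 µg/kg. The members were thus chosen by their measured levels in vehicle and at 0.3, 3 and 10 µg/kg, which are given below as a description with no test. The rule did not use the libraries at 0.01, 0.03, 0.1 and 1 µg/kg, and the main tests of the members rest on them. The choice was, however, made with earlier results of these data known.

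The livers came from female Sprague-Dawley rats, an outbred stock, aged 57 days by the labels. The treated rats received TCDD in sesame oil by gavage once every 4 days, and the vehicle rats received sesame oil alone. There were 7 dose groups, the rule's 0.3, 3 and 10 µg/kg and, outside the rule, 1 µg/kg and the lower doses of 0.01, 0.03 and 0.1 µg/kg. Livers were taken on day 28, with 3 rats in each of the 8 groups and 1 library per rat. Whole liver was sequenced, so more RNA per cell and more cells of a type cannot be told apart in any value below.

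TCDD (2,3,7,8-tetrachlorodibenzo-p-dioxin) is a persistent ligand of the aryl hydrocarbon receptor. Once bound, the receptor enters the nucleus, pairs with ARNT and binds DNA at dioxin response elements, where it raises the transcription of xenobiotic-metabolising enzymes of the CYP1 family. Direct targets of the receptor are known to respond at low doses, and repeated high doses are known to disturb liver lipid handling and to injure the tissue. The series title places the work in the field of polyunsaturated fatty acid and eicosanoid metabolism. The files list Ensembl gene IDs without symbols, and the RefSeq table used here holds no Ensembl IDs, so no member could be paired with a symbol. Members are therefore described by their levels and order, 2 of them by ID. Their functions, positions and sequences were not analysed here.

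Gene counts per library ranged from 11816273 to 15804887, so that 3 counts corresponded to 0.190 to 0.254 CPM. At 10 µg/kg, alignments that were not unique made up 29.3% to 34.98% of all counts listed for a library, in genes or not. They entered no gene count. In the other 21 libraries their share was 21.04% to 25.8%. The part of this difference in the results was not tested. Total-count CPM also placed the median gene with 1 to below 1000 CPM in vehicle at 1.08 times its vehicle level at 10 µg/kg, a shift of 0.12 on the log2 scale. With the libraries scaled by TMM, a method that centres the bulk of genes, this median was 0.961 times and the members' median was 2.60 in place of 2.93 times vehicle. The rule applied to TMM-scaled CPM kept 51 of the 89 members among 57 IDs, so that membership depends on the scaling.

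The order in which the conditions removed IDs shows how uncommon the profile was. A vehicle mean from 1 to below 1000 CPM was found for 11030 IDs. Of these, 533 (4.83%) had a 10 µg/kg mean of at least 2.5 times vehicle with no overlap of the libraries, a share that the rule itself used. A 0.3 µg/kg mean below 1.5 times vehicle left 232, and the same limit at 3 µg/kg left 96. Separation of every 10 µg/kg library from every 3 µg/kg library left the 89 members. Of the 232 IDs that were flat at 0.3 and up at 10 µg/kg, 82 were at 1.5 times vehicle or more at both 1 and 3 µg/kg, 54 at 3 µg/kg alone, 31 at 1 µg/kg alone and 65 at neither.

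The limits cut through a continuous range of values. The members nearest the fold limit at 10 µg/kg stood at 2.51 and 2.52 times vehicle, and the nearest IDs outside it at 2.498 and 2.495 times. At 3 µg/kg the nearest values were 1.49 and 1.49 inside against 1.51 and 1.51 outside, and at 0.3 µg/kg they were 1.48 and 1.47 inside against 1.5003 and 1.5016 outside. At the lower limit of vehicle expression, members at 1.00 and 1.01 CPM faced IDs at 0.997 and 0.995 CPM outside. Outside the window of vehicle levels, 88 IDs met every other condition, and the highest member averaged 200 CPM in vehicle.

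Most members were weakly expressed genes. In vehicle, 32 of the 89 averaged below 2 CPM, 58 below 5 CPM and 13 at least 10 CPM, with a median of 3.12 CPM. The 3 vehicle libraries together held 39 counts for the member with the fewest and a median of 119. The coefficient of variation within vehicle had a median of 26.8% over members, against 16.6% over the 11030 IDs in the same window. At 10 µg/kg these medians were 22.1% and 13.4%, so the members varied more between rats than the other IDs did in both groups. These spreads were not tested, and counting error is larger at lower levels.

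The members were higher than vehicle by moderate factors at 10 µg/kg. The ratio of the 10 µg/kg mean to the vehicle mean ran from 2.51 to 8.09, with a median of 2.93. It was below 3 in 51 members and at least 3 in 38, at least 4 in 9 and at least 5 in 3. Group means at 10 µg/kg ran from 2.80 to 718 CPM, with a median of 10.0 CPM. Summed, the 89 accounted for 0.0755% ± 0.0115 of a vehicle library's gene counts, and for 0.238% ± 0.0335 of those at 10 µg/kg (SD, n = 3). One member held 30.1% of the summed level at 10 µg/kg and the highest 5 held 52.5%. Without that member the shares were 0.0555% ± 0.00362 and 0.166% ± 0.0110 (SD, n = 3).

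**Figure D1:**
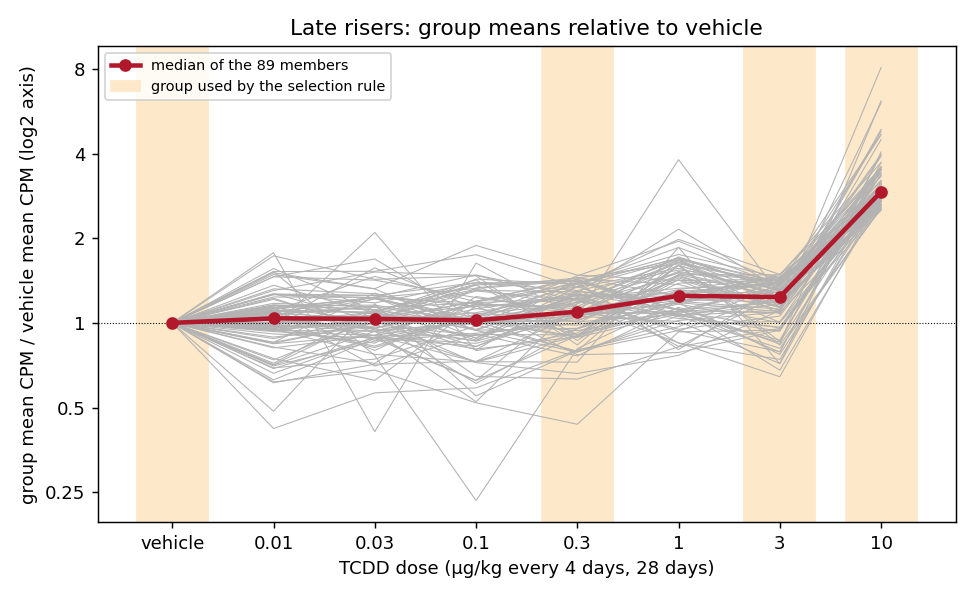
Group mean CPM of each of the 89 members divided by its vehicle mean (log2 axis) against TCDD dose in µg/kg; grey lines are members, the red line is their median and shaded groups were used by the selection rule. The median stays between 1.02 and 1.10 up to 0.3 µg/kg, is 1.248 at 1 and 1.24 at 3 µg/kg, and is 2.93 at 10 µg/kg.

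ENSRNOG00000005810 had the largest ratio at 10 µg/kg, 8.09. Its vehicle libraries held 2.30, 1.18 and 2.70 CPM, and those at 10 µg/kg held 11.1, 18.5 and 20.4 CPM. The means were 2.06 ± 0.785 and 16.7 ± 4.96 CPM (SD, n = 3). In the 18 libraries of the doses between, it ranged from 0.996 to 3.24 CPM. At 3 µg/kg the libraries held 1.96, 1.65 and 3.24 CPM, so replicate 3 lay above all vehicle libraries and the other two lay among them. The 1 µg/kg libraries held 1.11, 1.91 and 1.72 CPM, and the 9 libraries of the lowest 3 doses 0.996 to 2.92 CPM. Here the groups overlapped, and no difference between 1 µg/kg and the lower doses was detectable (log2 fold change -0.04, SE 0.292, edgeR adjusted p = 0.964).

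ENSRNOG00000020060 had the highest level of the 89. Its vehicle libraries held 109, 231 and 261 CPM, and those at 10 µg/kg held 488, 720 and 945 CPM. The means were 200 ± 80.4 and 718 ± 229 CPM (SD, n = 3), a ratio of 3.59. The rats within a group differed widely in this gene. At 1 µg/kg the libraries held 99.6, 430 and 377 CPM, so that replicate 1 lay below all vehicle libraries and replicates 2 and 3 above them. At 0.1 µg/kg they held 173, 191 and 381 CPM, with replicate 3 above every vehicle library. The 3 µg/kg libraries, at 319, 264 and 264 CPM, all lay above the vehicle range. Against the 3 lower doses, the log2 fold change at 1 µg/kg was 0.81 (SE 0.327) and missed the threshold (edgeR adjusted p = 0.2501). Without 1 µg/kg replicate 1 it was 1.22 and passed (SE 0.215, edgeR adjusted p = 0.00913), the only setting tried in which it did. Without 1 µg/kg replicate 2 it was 0.45 (SE 0.368, edgeR adjusted p = 0.783). Without 1 µg/kg replicate 3 it was 0.62 (SE 0.388, edgeR adjusted p = 0.649).

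**Figure D2:**
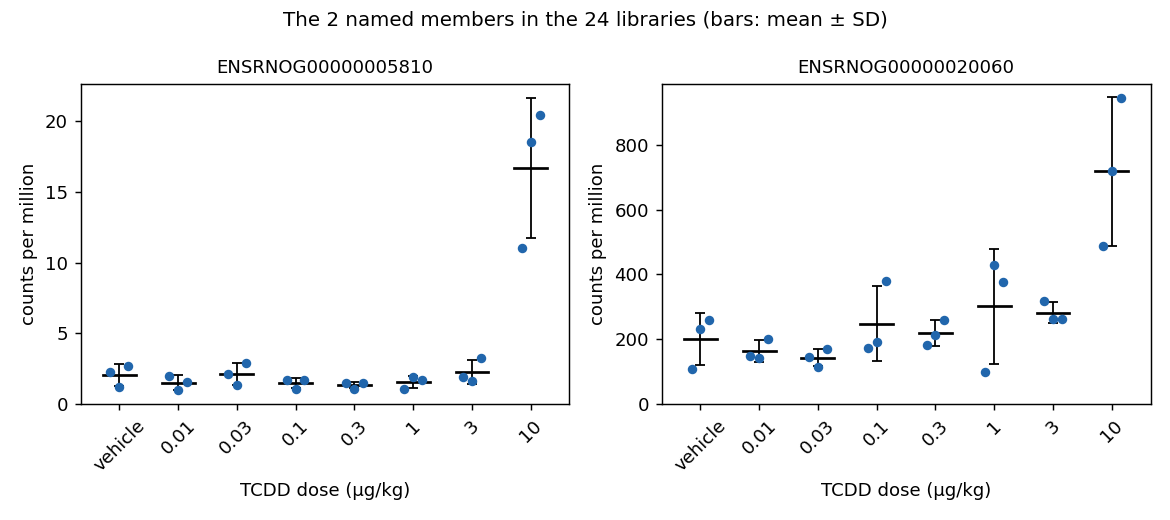
CPM of the member with the largest ratio at 10 µg/kg (left) and of the member with the highest level (right) in each library against TCDD dose in µg/kg; points are libraries, lines and bars are the mean ± SD of 3 libraries. On the left the 10 µg/kg libraries, at 11.1 to 20.4 CPM, lie apart from all others; on the right those of 0.1 and 1 µg/kg are spread from 99.6 to 430 CPM.

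The 9 members with a ratio of at least 4 were all low in vehicle, from 1.17 to 2.40 CPM, and reached 5.91 to 16.7 CPM at 10 µg/kg. The member second in ratio, at 6.16, differed most among the rats of that dose. Its libraries at 10 µg/kg held 2.33, 5.76 and 13.6 CPM, and those of vehicle 1.15, 0.592 and 1.77 CPM. Replicate 3 at 10 µg/kg thus lay at 5.82 times replicate 1. Over the 89 members this ratio of the highest to the lowest library at 10 µg/kg had a median of 1.55. It was below 1.5 in 41 members and 2 or more in 18.

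The 3 rats at 10 µg/kg all showed the higher level, which the rule required of every member. The median member stood at 2.73, 2.93 and 3.05 times its vehicle mean in replicates 1, 2 and 3. Replicate 1 held the lowest value of the 3 for 40 members, replicate 3 for 29 and replicate 2 for 20. At least 2.5 times the vehicle mean was reached by 57, 74 and 73 members in the 3 libraries. Every 10 µg/kg library lay above all 21 other libraries for 68 of the 89 members, beside 7.74% of the 11030 IDs, a count the rule fixed in part. Every 10 µg/kg library lay above every 1 µg/kg library for 78 members, beside 25.9% of the 11030 IDs. This count too was fixed in part, since the rule used the 10 µg/kg libraries. The 2 groups overlapped for the other 11 members.

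**Figure D3:**
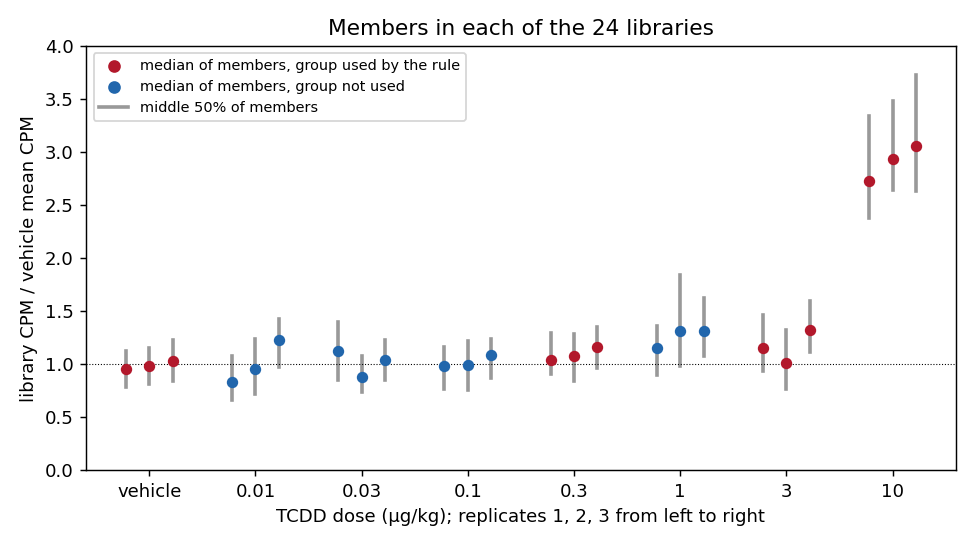
Level of the members in each of the 24 libraries, as CPM divided by the vehicle mean CPM, against TCDD dose in µg/kg; points are medians over the 89 members, bars span the middle 50% of members, and blue marks groups the rule did not use. The 3 libraries at 10 µg/kg sit at 2.73 to 3.05 and all others at 0.832 to 1.32.

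At the lowest 3 doses the members were close to vehicle as a group. Their median ratio to vehicle was 1.04 at 0.01, 1.03 at 0.03 and 1.02 at 0.1 µg/kg, beside 1.03, 1.04 and 1.00 for all IDs in the window. At least 1.5 times vehicle was reached by 6, 5 and 3 members, where 4.46%, 4.73% and 7.1% of all IDs in the window did so. A level below vehicle by the same factor was found for 6, 3 and 9 members, beside 3.86%, 3.46% and 3.98% of those IDs. The libraries of 1 dose differed nonetheless. At 0.01 µg/kg the median member stood at 0.832, 0.959 and 1.23 times vehicle in replicates 1, 2 and 3, and replicate 3 was the highest of its group for 55 of the 89 members. Over all IDs in the window the medians in these 3 libraries were 0.974, 1.00 and 1.08. All ratios to vehicle share the vehicle libraries that the rule used, so they are no independent measure.

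The step from 0.01 and 0.03 to 0.1 µg/kg, tested in the libraries the rule did not use, showed no called change among the members. The test was edgeR's quasi-likelihood test on the 12 libraries at 0.01, 0.03, 0.1 and 1 µg/kg. It covered 12032 genes, all 89 members among them, and a gene was called at a Benjamini-Hochberg adjusted p below 0.05. None of the 89 was called, where 0.0416% of all genes were called higher and 0% lower. At an unadjusted p below 0.05, 0 members were higher and 4 lower, beside 4.36% and 2.15% of all genes. DESeq2 called 0 members too, with 5 of 89 at an unadjusted p below 0.05 in either direction, beside 742 of the 12032 genes. The median log2 fold change was 0.01 over members and 0.00 over all genes.

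At 1 µg/kg, below the 2 highest doses, 10 members were called higher than at the 3 lower doses in these same 12 libraries. Most of the other members lay in the same direction. The test set the 1 µg/kg mean against the average of 0.01, 0.03 and 0.1 µg/kg. The 10 are 11.2% of the 89 members and 0 were called lower, where 1.41% of all genes were called higher and 0.291% lower. At an unadjusted p below 0.05, 38 members (42.7%) were higher and 0 lower, beside 9.41% and 6.45% of all genes. A log2 fold change above 0 was fitted for 72 of the 89 members (80.9%) and for 49.98% of all genes. The median was 0.39 over members, with the middle 50% of members from 0.04 to 0.72, and 0.00 over all genes.

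The count of 10 was sensitive to single rats, and so was the number of all genes called in either direction, 1.70% in the 12 libraries. Without 1 µg/kg replicate 2, 1 member (1.12%) was called, beside 0.402% of all genes. Without replicate 3 it was again 1 member (1.12%), beside 0.533% of all genes, so that in both cases the members' excess rested on a single gene. Without replicate 1, 18 members (20.2%) were called, beside 5.30% of all genes. Leaving out replicate 1 at 0.01 or replicate 2 at 0.1 µg/kg gave 5 members, beside 0.908% and 1.14% of all genes. Leaving out replicate 2 at 0.01, any 1 of the 3 at 0.03, or replicate 1 at 0.1 µg/kg gave 6, beside 1.10% to 1.51% of all genes. Total-count scaling gave 3 members (3.37%), beside 1.24% of all genes. DESeq2 gave 17 (19.1%), all of them higher, beside 4.12% of all genes, so that its count over all genes was larger as well. The median log2 fold change moved less, from 0.35 to 0.44 over the 12 omissions, and was 0.33 with total-count scaling. Replicate 1 at 1 µg/kg was the lowest of its group for 42 of the 89 members, and the median member stood at 1.15, 1.31 and 1.32 times vehicle in replicates 1, 2 and 3.

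**Figure D4:**
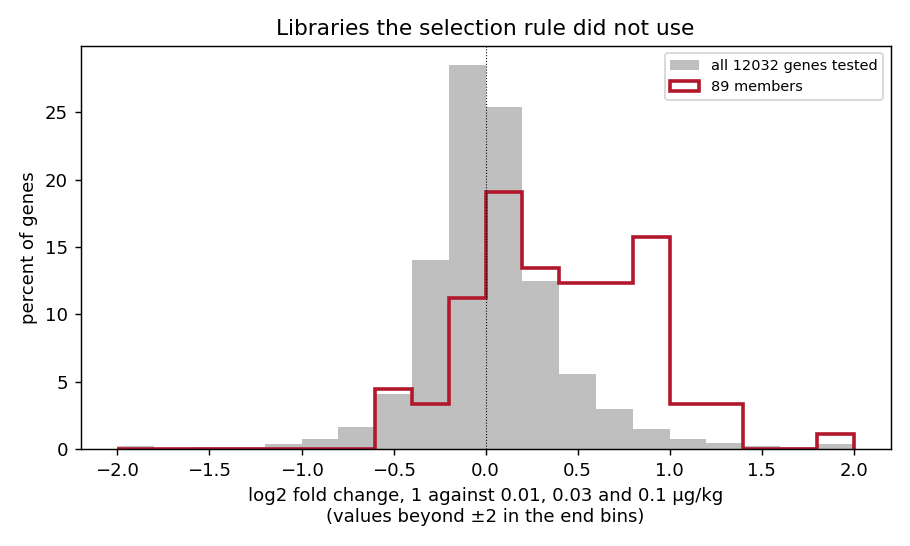
Share of genes in percent by log2 fold change at 1 µg/kg against 0.01, 0.03 and 0.1 µg/kg, for all 12032 genes tested (grey) and the 89 members (red outline), in bins of equal width with values beyond the axis placed in the end bins. The members lie to the right of all genes, with medians of 0.39 and 0.00.

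The 10 members called at 1 µg/kg had fitted changes of 1.52 to 3.71 times the lower doses. Against vehicle, which the rule used, their means at 1 µg/kg stood at 1.18 to 3.81 times, with a median of 1.67. The mean of the lower doses lay below vehicle in some of the 10 and above it in others. The lowest p belonged to a member whose 1 µg/kg libraries held 18.5, 12.7 and 9.93 CPM, while the 9 libraries of the lower doses held 3.99 to 8.38 CPM with a median of 5.81 (log2 fold change 1.28, SE 0.184, edgeR adjusted p = 0.00376). All 3 libraries at 1 µg/kg lay above all 9 of the lower doses. Its vehicle libraries, at 5.83, 10.6 and 8.17 CPM, reached into the range of 1 µg/kg, and those at 3 µg/kg held 8.54, 12.8 and 7.53 CPM. At 10 µg/kg it held 17.7, 22.9 and 22.5 CPM. The lowest of these was below the highest at 1 µg/kg.

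The member with the largest fitted change at 1 µg/kg had its highest mean there. Its libraries held 2.49, 10.1 and 6.18 CPM at 1 µg/kg, against 3.42, 4.49 and 6.47 CPM at 10 µg/kg (log2 fold change at 1 µg/kg 1.89, SE 0.432, edgeR adjusted p = 0.0498). For the other 88 members the highest group mean was at 10 µg/kg. Its vehicle libraries lay close together at 1.69, 1.55 and 1.69 CPM. The lower doses were scattered from 0.523 to 4.94 CPM, with the highest values in 0.01 µg/kg replicate 3 and 0.1 µg/kg replicate 1. Replicate 1 at 1 µg/kg lay within that range.

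Without overlap between the 3 libraries at 1 µg/kg and the 9 at lower doses, 8 members (8.99%) were higher and 0 lower, beside 1.98% and 2.54% of the IDs in the window. Of these 8, 7 were among the 10 called. One of them was the member at the lower edge of the rule, with 1.00 ± 0.328 CPM in vehicle, 2.15 ± 0.284 CPM at 1 µg/kg, 1.33 ± 0.266 CPM at 3 µg/kg and 2.80 ± 0.165 CPM at 10 µg/kg (SD, n = 3). Its libraries at 1 µg/kg held 31, 32 and 24 counts, and those of the 9 lower doses 10 to 18.

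The called and the other members overlapped in their ratios at the top dose. The 10 called at 1 µg/kg stood at 2.56 to 3.72 times vehicle at 10 µg/kg, with a median of 2.80, and the other 79 at 2.51 to 8.09 times, with a median of 2.95. The called members were the more highly expressed, with a median of 8.71 CPM in vehicle against 2.64 CPM. None of the 9 members with a ratio of at least 4 was called at 1 µg/kg, beside 11.2% of all 89 members and 1.41% of all genes called higher. With only 9 members, all at 1.17 to 2.40 CPM in vehicle, a count of 0 does not set them apart. The log2 fold changes of the 9 at 1 µg/kg ran from -0.21 to 0.95. Their median was 0.40, close to that of all 89, and 7 of the 9 were above 0. The lowest edgeR adjusted p among them was 0.196. These subsets were not tested against each other.

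**Figure D5:**
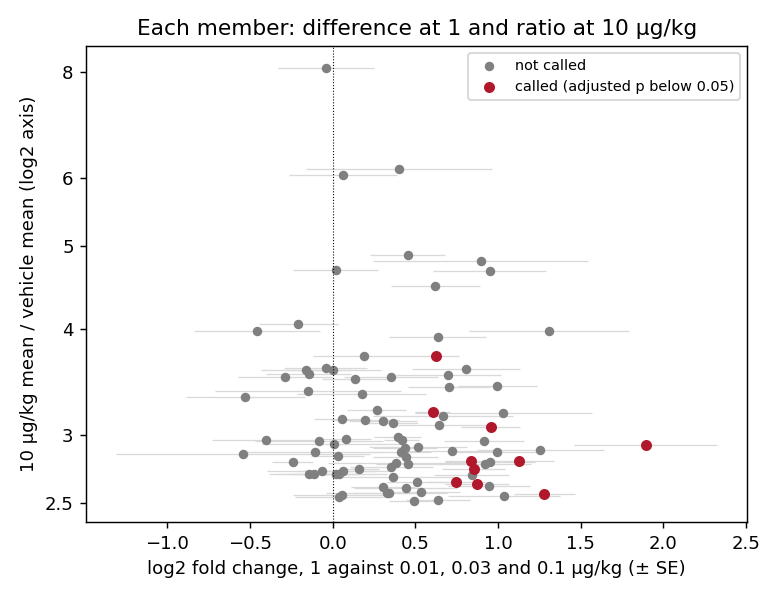
Each member's log2 fold change at 1 µg/kg against 0.01, 0.03 and 0.1 µg/kg (x axis, bars ± SE) and its ratio of the 10 µg/kg mean to the vehicle mean (y axis, log2 scale); red marks the 10 called members. The called members lie between ratios of 2.56 and 3.72, and the members with a ratio of at least 4 lie between -0.21 and 0.95 on the x axis.

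Against vehicle, 27 members (30.3%) averaged at least 1.5 times the vehicle mean at 1 µg/kg, beside 7.36% of the IDs in the window. By that factor 0 lay below vehicle, beside 5.17%. Both counts share the vehicle libraries that the rule used, so they are no independent measure. The rule capped 3 µg/kg at 1.5 times vehicle and left 1 µg/kg free. The mean was lower at 3 than at 1 µg/kg in 55 of the 89 members and in all 10 called at 1 µg/kg. Those 10 were also picked by their level at 1 µg/kg. The counts of 55 and 10 therefore cannot show whether levels fell between these doses, which was not tested. The median ratios of 1.248 at 1 and 1.24 at 3 µg/kg differed little. At 3 µg/kg the libraries were again unequal, with the median member at 1.15, 1.01 and 1.32 times vehicle in replicates 1, 2 and 3. Over all IDs in the window the medians in these 3 libraries followed the same order, at 0.968, 0.905 and 1.01.

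Genes that were already high at 3 µg/kg were set beside the late risers for the same measure. A set of 74 IDs shared the vehicle window and the limit at 0.3 µg/kg but averaged at least 2 times vehicle at 3 µg/kg, with every library there above every vehicle library. In the 12 unused libraries, 24 of these 74 (32.4%) were called higher at 1 µg/kg and 0 lower, with a median log2 fold change of 0.69. The late risers' 10 of 89 and 0.39 lay between this set and all genes. The difference between the 2 sets was not tested.

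The members did not vary strictly together among rats of the same dose. Over the 12 unused libraries, after removal of each group's mean, Pearson's r between the log2(CPM + 1) of 2 members had a median of 0.153, with the middle 50% of pairs from -0.125 to 0.42. Over all pairs of the 11030 IDs the median was 0.0888, from -0.209 to 0.372. Among the 31 members of at least 5 CPM in vehicle it was 0.228. All pairs share the same 12 libraries and their depth, so these values are a description.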

How the data were processed

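The members and lists were chosen with earlier results of these data known. The authors deposited raw counts, 1 table of Ensembl gene IDs per library with 5 HTSeq summary rows. These rows were left out of library sizes and tests and held 35.8% to 47.5% of a table. Per the submitters' processing notes, the tools, named without roles, were HTSeq 0.6.1, TopHat 1.4.1, DESeq, FastQC 0.11.2, SAMtools 0.1.2 and cutadapt 1.4.1. The sources used here do not name the build, annotation release or strand setting, so overlapping, antisense or near-identical genes are uncertain. Of the 47357 rows of the RefSeq table (GRCr8), 0 carry an Ensembl ID, so the 26404 IDs could not be looked up in it and the lists of pathway and cell type genes were not applied. The 2 named IDs, first by ratio and by level at 10 µg/kg, were picked without the symbol the naming rule asked for.

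Groups and replicate numbers came from the dose and replicate labels. Same-group libraries differed beyond sampling noise in all 24 pairs (chi-square per degree of freedom 13.9 to 58.4). Counts were fitted in R 4.3.3 with edgeR 4.0.16 (filterByExpr, 12032 of 17444 IDs; TMM factors 0.926 to 1.08; glmQLFit with a mean per group, 8 residual degrees of freedom) in the 12 libraries the rule did not use. An SE is the log2 fold change divided by the square root of F. On simulated counts for 11906 genes, this test at 1 µg/kg called 13 of 50 changes of 1.5-fold, 40 of 50 of 2-fold, 50 of 50 of 4-fold and 32 of 50 decreases to 0.5 of the level, and 4 of 139 calls were false. Alternatives were RLE scaling, DESeq2 1.42.0, other filters, a replicate block, a fit of all 24 libraries, other limits of the rule, and leaving out each library. Total-count scaling was added after the data were seen. P-values weigh a difference between groups against the spread between these rats.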

Additional observations from a re-analysis of the deposited data

Results flagged for a closer look

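Non-unique alignments enter no gene count and no comparison above. They made up 32.0% ± 2.85 of a table at 10 µg/kg (SD, n = 3), more than the 24.1% ± 0.797 found in the vehicle controls (SD, n = 3).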

How the results depend on the processing

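The number of members was 57 with TMM-scaled CPM and 61 with RLE-scaled CPM, 215 and 38 with a limit of 2 and 3 times vehicle at 10 µg/kg, 43 with a tighter limit at 0.3 and 3 µg/kg, and 56 when the other 4 doses were held below 1.5 times as well. Leaving out 1 library gave 83 to 122 IDs, of which 56 to 86 were among the 89. The 10 members called at 1 µg/kg became 17 with DESeq2, 3 with total-count scaling and 1 to 18 when 1 library was left out. All genes called there, 205, became 496 with DESeq2 and 49 to 647 when 1 library was left out. The replicate block gave 12 members, 9 of them among the 10, and 255 genes. The labels tie the replicate numbers to no shared litter, batch or day. Of 18 same-number pairs, 11 had a correlation over 0.1 (-0.243 to 0.328), short of the every pair required here to treat the numbers as a pairing, and 7 of 12 libraries correlated best with their own number, a hint of some shared structure. The log2 fold change of ENSRNOG00000005810 at 1 µg/kg, never called, was -0.04, ran from -0.21 to 0.16 and was above 0 without 0.01 µg/kg replicate 1, 0.03 µg/kg replicate 3 or 1 µg/kg replicate 1, and that of ENSRNOG00000020060 from 0.45 to 1.22, when 1 library was left out. No setting called a member at 0.1 µg/kg, and the members' median log2 fold change at 1 µg/kg stayed between 0.33 and 0.44 in all settings tried. The cause of these shifts was not tested. At a few CPM, counting error limits what 3 libraries can show.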
